A study of Homo sapiens with 12 samples.

Results

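The cytosolic ribosomal protein genes encode the proteins of the ribosome that translates messenger RNA in the cytoplasm. They were taken from the count table as the rows whose symbol is RPL or RPS followed by a number and at most an A or an X, together with RPLP0, RPLP1, RPLP2 and RPSA. This gave 77 of the 20289 genes in the table, 46 of the large subunit and 31 of the small subunit, and all 77 had enough counts to be tested among 12821 genes. The libraries were made from poly(A) RNA of the human glioblastoma line U251, an established line, with 3 libraries in each of 4 groups. Knockdown DMSO cells carried a lentiviral short hairpin RNA that targets CD44, a membrane glycoprotein that binds hyaluronan, and were given the solvent DMSO. Control DMSO cells carried a control hairpin, with the genotype given as WT, and received DMSO. Knockdown temozolomide cells carried the CD44 hairpin and received temozolomide at 50 µM, a drug that methylates DNA and is standard in glioblastoma treatment. Control temozolomide cells had the genotype WT and the same dose, and the NC in their titles was read as the control hairpin. All treatments lasted 24 h, every group carried a lentiviral hairpin on that reading, and the labels do not say whether the knockdown cells were 1 clone or a pool.

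A ribosome is built from a large and a small subunit, each a frame of ribosomal RNA that holds many small, basic proteins. Their messengers are among the most abundant in a growing cell, are made from short, intron-containing genes scattered over the genome, and mostly begin with an uninterrupted stretch of pyrimidines at the first base. That stretch, the terminal oligopyrimidine or TOP motif, places translation of these messengers, and their protection by the RNA-binding protein LARP1, under the growth-sensing kinase complex mTORC1.

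The 77 genes lay on 21 chromosomes, with 12 on chromosome 19. RefSeq promoters of build GRCh38.p14 were at hand for 62 of them. A run of at least 5 pyrimidines that opened with a C within 5 bases of an annotated start was present in 53 of these 62 genes (85.5%), against 25.2% of 27305 genes. The annotated start base was itself a C heading at least 5 pyrimidines in 46 of the 62 (74.2%), against 5.07% of all genes, whether or not the run began further upstream. The stretches below are given for the members with the largest and the smallest differences in the comparisons that follow and for RPS6 and RPL3 as ordinary members. Each holds 30 bases before the annotated start and 20 bases from it on, so it joins the promoter to the first bases of exon and 5′ untranslated region, and capitals mark the pyrimidine run.
RPS28, chr19:8321466-8321515, plus strand: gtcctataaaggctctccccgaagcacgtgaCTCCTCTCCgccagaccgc
RPS29, chr14:49598691-49598740, minus strand: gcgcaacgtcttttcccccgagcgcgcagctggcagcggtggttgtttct
RPS27, chr1:153990732-153990781, plus strand: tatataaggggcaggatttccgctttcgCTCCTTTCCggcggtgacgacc
RPS25, chr11:119018324-119018373, minus strand: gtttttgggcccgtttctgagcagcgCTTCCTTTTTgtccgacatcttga
RPLP1, chr15:69452788-69452837, plus strand: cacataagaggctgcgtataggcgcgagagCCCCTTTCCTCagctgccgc
RPL39, chrX:119791611-119791660, minus strand: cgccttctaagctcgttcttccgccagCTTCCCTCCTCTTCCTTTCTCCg
RPL14, chr3:40457309-40457358, plus strand: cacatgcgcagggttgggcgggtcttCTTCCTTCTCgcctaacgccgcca
RPS6, chr9:19380217-19380266, minus strand: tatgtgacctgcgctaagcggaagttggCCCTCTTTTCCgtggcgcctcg
RPL3, chr22:39319604-39319653, minus strand: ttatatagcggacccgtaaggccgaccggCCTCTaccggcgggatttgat
RPS15, chr19:1438366-1438415, plus strand: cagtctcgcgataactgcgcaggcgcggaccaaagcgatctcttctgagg
RPS26, chr12:56041888-56041937, plus strand: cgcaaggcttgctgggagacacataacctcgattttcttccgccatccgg
RPS10, chr6:34426050-34426099, minus strand: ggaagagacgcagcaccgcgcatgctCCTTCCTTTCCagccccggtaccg
The longest run among the 62 genes, in RPL39, had 22 bases, and the median over the 53 genes with a run was 11. RPS29, RPS15 and RPS26 had no such run within 5 bases of the start, and neither had RPL6, RPL9, RPL15, RPL17, RPL27 or RPS4X. No match says only that these letters are not in this window.

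Other promoter letters were searched from 250 bases before to 50 after the start on both strands, and matches to different motifs may overlap. CCGGAA, the core that ETS factors such as GABP bind, was present in 35 of the 62 genes (56.5%), against 20.1% of all genes. GGGCGG, the GC box of SP1, was present in 36 (58.1%) and in 48.3% of all genes. AAGATGG, the YY1 core, was present in 8 (12.9%) and in 7.11% of all genes. TATAA or TATAT between 40 and 16 bases before the start, read on the gene's own strand, was present in 10 (16.1%) and in 6.36% of all genes.

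CD44 itself was measured first, as a check of the labels. It had 421, 419 and 419 CPM in knockdown DMSO cells, against 1127, 1102 and 1043 CPM in control DMSO cells. Under temozolomide it had 319.8, 326 and 333 CPM in knockdown temozolomide cells, against 851, 808 and 804 CPM in control temozolomide cells. The log2 fold changes were -1.38 (SE 0.034, adjusted p = 3.21e-17 in edgeR) and -1.33 (SE 0.034, adjusted p = 1.17e-16 in edgeR), and the libraries did not overlap. CPM here is the count per 1e6 counts of the library after scaling by TMM, a log2 fold change of -1 is a fall to 50% of the compared level, and a gene was called higher or lower at a Benjamini-Hochberg adjusted p below 0.05 over all 12821 genes. Whether the 3 libraries within a group came from separate cultures is not stated in the labels, so p-values measure only the spread between these libraries.

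Library totals ran from 13.5 to 24.8 (in units of 1e6 counts), so 3 counts, the floor of detection used here, stood at 0.121 to 0.222 CPM, and the least abundant member still had 238 counts in its lowest library. That floor covers counting error only. Control DMSO library 3 stood apart for short, abundant messengers: its members lay 0.35 above their 12-library mean, against 0.20 and 0.09 in the other control DMSO libraries, and the family's number of calls and median in each comparison that uses it are also given without it. Of the glioma markers, NES, VIM, EGFR and SOX2 were present, GFAP was low and OLIG2 and S100B were near 0. Knockdown cells had more of NES (0.86 and 0.73 on the log2 scale under DMSO and temozolomide), EGFR (0.37 and 0.44) and VIM (0.19 and 0.32) and less SOX2 (-0.42 and -0.54) than control cells, all called in edgeR. The 7 glioma and astrocyte markers summed to 4333 to 4408 CPM in knockdown DMSO cells, against 3847 to 4032 in control DMSO cells, and to 3512 to 3697 CPM in knockdown temozolomide cells, against 2982 to 3140.4 in control temozolomide cells. The 10 markers of other cells summed to 516 to 554 CPM in knockdown DMSO cells, against 801 to 827 in control DMSO cells, and to 378 to 427 CPM in knockdown temozolomide cells, against 630.2 to 650.1 in control temozolomide cells. Most of that sum came from the keratins KRT8, KRT14 and KRT18, which were all lower in knockdown cells. CD68 was higher in them, by 0.62 under DMSO and 0.77 under temozolomide, and PECAM1 was called higher under temozolomide. MS4A1 and CD3E were at 0 in every library, and EPCAM, PTPRC, VWF and PECAM1 were all under 1 CPM. The part of these lists in the results was not tested.

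Ribosomal protein messengers took up a smaller share of the libraries of CD44 knockdown cells. Their summed counts were 3.55% ± 0.17 of all counts in knockdown DMSO cells and 4.41% ± 0.36 in control DMSO cells, and 3.46% ± 0.13 in knockdown temozolomide cells and 4.41% ± 0.11 in control temozolomide cells (SD, n = 3 each). Measured per length, as the share of summed FPKM, they held 9.75% ± 0.43 in knockdown DMSO cells and 11.7% ± 0.83 in control DMSO cells, and 9.54% ± 0.29 in knockdown temozolomide cells and 11.9% ± 0.33 in control temozolomide cells. Both subunits were lower together. Large-subunit counts were 1.75 ± 0.011 times small-subunit counts in knockdown DMSO cells and 1.74 ± 0.0053 times in control DMSO cells, and 1.72 ± 0.010 times in knockdown temozolomide cells and 1.71 ± 0.0045 times in control temozolomide cells. Every temozolomide library had a lower ratio of summed counts than every DMSO library of the same kind of cell. Knockdown ratios all lay above control ratios under temozolomide, and the groups overlapped under DMSO. The large-minus-small gap in mean log2 CPM, which weighs each gene alike, gave a partly different order. It was 0.369, 0.379 and 0.373 in knockdown DMSO libraries and 0.328, 0.354 and 0.330 in control DMSO libraries, with no overlap. It was 0.344, 0.343 and 0.353 in knockdown temozolomide libraries and 0.338, 0.337 and 0.338 in control temozolomide libraries. By this gap the 2 control groups overlapped. No test of these small gaps was made. In bulk poly(A) RNA, fewer cells with a high level and less of these messengers per cell cannot be told apart, and the absolute amount per cell was not measured.

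**Figure D1:**
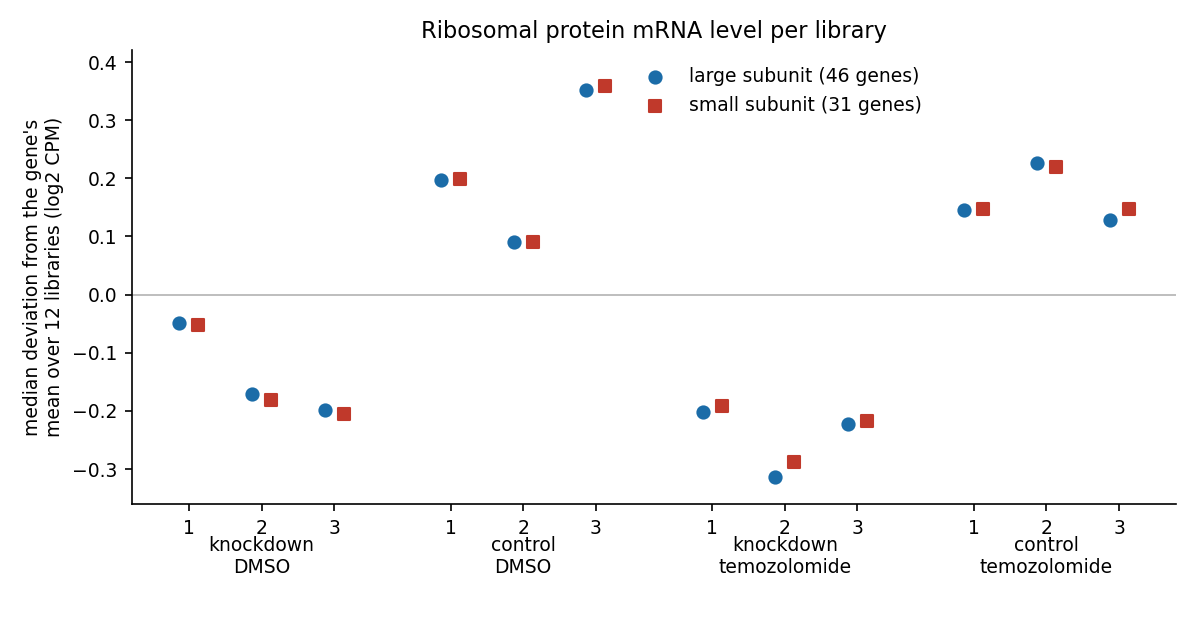
Median deviation of the members of each subunit from the gene's own mean over 12 libraries (log2 CPM, vertical axis) for the 3 libraries of each group (horizontal axis), with circles for the 46 large-subunit genes and squares for the 31 small-subunit genes. The 6 knockdown libraries lie below 0 and the 6 control libraries above it, control DMSO library 3 is the highest at 0.35, and the symbols of the subunits nearly coincide in every library.

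With DMSO alone, all 77 ribosomal protein genes were lower in CD44 knockdown cells than in control cells, whereas 21.4% of all genes tested were lower and 21.1% higher. Short, abundant genes outside the family, 87 genes under 1000 bases and at 100 CPM or more, were lower in 42.5%, with a median of -0.09. The fall was small in most members, with values from -1.19 to -0.21. The median log2 fold change was -0.36, which is 78.1% of the control level, beside a median of -0.0014 over all genes tested, and the middle 50% of the members lay between -0.43 and -0.32. The SD over members was 0.13 and 0.087 without RPS28, next to a median SE of 0.058 for a single gene, and 55 of the 77 lay within 0.1 of the median. In 72 of the 77 genes every knockdown library lay below every control library, a pattern that 25.5% of all genes tested showed in this direction. The groups of the other 5 genes, RPL36, RPL35A, RPL21, RPS21 and RPS27A, overlapped. The 46 large-subunit genes had a median of -0.34 and the 31 small-subunit genes a median of -0.37, and no test of this gap was made.

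Without control DMSO library 3, 74 of the 77 genes stayed lower and the median was -0.28, with RPS10, RPS21 and RPL35A no longer called. The same library also had higher counts of GC-rich and short messengers in general. Among genes outside the family, the median log2 fold change was -0.12 above 60% GC and 0.09 below 40% GC, and -0.11 for genes under 1000 bases. After correction for GC content and length the members' median was -0.23 and 74 genes were lower, with RPS10, RPS15 and RPL35 no longer called. In that fit 3417 of 12497 genes were lower and 2352 higher, and their median was -0.03. In limma fits to log2 FPKM, 59 to 65 of the 77 were lower.

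RPS28, a small-subunit protein near the exit of the messenger channel, had the largest difference of the family. It had 54.7, 50.0 and 52.8 CPM in knockdown DMSO cells, against 120.1, 99.8 and 138 CPM in control DMSO cells. All 3 knockdown libraries lay far below the lowest control library, and the log2 fold change was -1.19 (SE 0.081, adjusted p = 2.37e-10 in edgeR). Its counted transcript had an implied length of 1330 bases, against a median of 648 over the members, and 6 libraries held a fractional count. The part of this in its value was not tested.

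Several other small-subunit genes stood at the low end. RPS29, a zinc-binding protein of the small-subunit head, had 21.2, 18.9 and 19.4 CPM in knockdown DMSO cells, against 29.8, 23.5 and 37.4 CPM in control DMSO cells. Its log2 fold change was -0.62 (SE 0.12, adjusted p = 0.000348 in edgeR), and the lowest control library lay only just above the highest knockdown library. RPS27, another zinc-binding protein, had 154, 130.4 and 129.9 CPM in knockdown DMSO cells, against 185, 169 and 265 CPM in control DMSO cells. The control values were spread widely, with library 3 the highest, and the log2 fold change was -0.59 (SE 0.11, adjusted p = 0.000208 in edgeR). RPS25, which is needed by several viral internal ribosome entry sites, had 268, 231 and 238 CPM in knockdown DMSO cells, against 338, 324 and 424 CPM in control DMSO cells. No libraries overlapped and the log2 fold change was -0.56 (SE 0.075, adjusted p = 3.62e-06 in edgeR). RPS3, which lines the messenger entry channel, followed at -0.53 (SE 0.062, adjusted p = 5.27e-07 in edgeR).

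Among the lowest large-subunit genes were the stalk protein RPLP1 at -0.51, RPL38 at -0.49 and RPL18 at -0.48, all called lower. RPLP0, RPLP1 and RPLP2 form the stalk that recruits translation factors, and all 3 were lower. RPLP0 had 2176, 2123 and 2001 CPM in knockdown DMSO cells, against 2726, 2499 and 2851 CPM in control DMSO cells. The groups did not overlap, and the log2 fold change was -0.36 (SE 0.042, adjusted p = 5.26e-07 in edgeR). RPL5 and RPL11, which carry the 5S ribosomal RNA into the large subunit and bind MDM2 when ribosome assembly fails, were lower by similar amounts, at -0.35 and -0.30. RPL5 had 649, 609 and 612 CPM in knockdown DMSO cells, against 798, 759 and 817 CPM in control DMSO cells. RPL3, at the peptidyl transferase centre, had 1152, 1136 and 1118 CPM in knockdown DMSO cells, against 1461, 1381 and 1524 CPM in control DMSO cells, with a log2 fold change of -0.36 (SE 0.032, adjusted p = 1.26e-08 in edgeR).

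The 8 members listed as lining the peptide exit tunnel had a median of -0.32 and all 8 were lower, with RPL39 the lowest at -0.48. The 4 small-subunit members of the messenger channel and decoding region were all lower, with a median of -0.35. RPS6, the substrate of the S6 kinases, had 1141, 1069 and 1049.7 CPM in knockdown DMSO cells, against 1343, 1302 and 1473 CPM in control DMSO cells. The knockdown libraries all lay below the control libraries, and the log2 fold change was -0.34 (SE 0.041, adjusted p = 1.03e-06 in edgeR). RPS4X, encoded on the X chromosome, had 679, 649.7 and 644 CPM in knockdown DMSO cells, against 904, 853 and 954 CPM in control DMSO cells. Its log2 fold change was -0.46 (SE 0.036, adjusted p = 1.82e-09 in edgeR). The 20 members in which variants cause Diamond-Blackfan anaemia, among them RPS19 at -0.38 and RPS26 at -0.27, were all lower, with a median of -0.33.

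The smallest differences also passed the test. RPS10, a protein of the small-subunit head, lay at -0.21 (SE 0.071, adjusted p = 0.0228 in edgeR), RPL15 at -0.21, RPL6 at -0.22 and RPL7 at -0.23. The call of RPS10 was lost without knockdown DMSO library 2, without control DMSO library 1 or 3, and with library totals alone. RPL22 and RPL10, which are deleted or mutated in some T-cell leukaemias, lay at -0.25 and -0.44, and RPL14 and RPL41 at -0.47 and -0.44. RPSA, also known as the laminin receptor, lay at -0.27 and RPS27A, made as a fusion with ubiquitin, at -0.28.

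**Figure D2:**
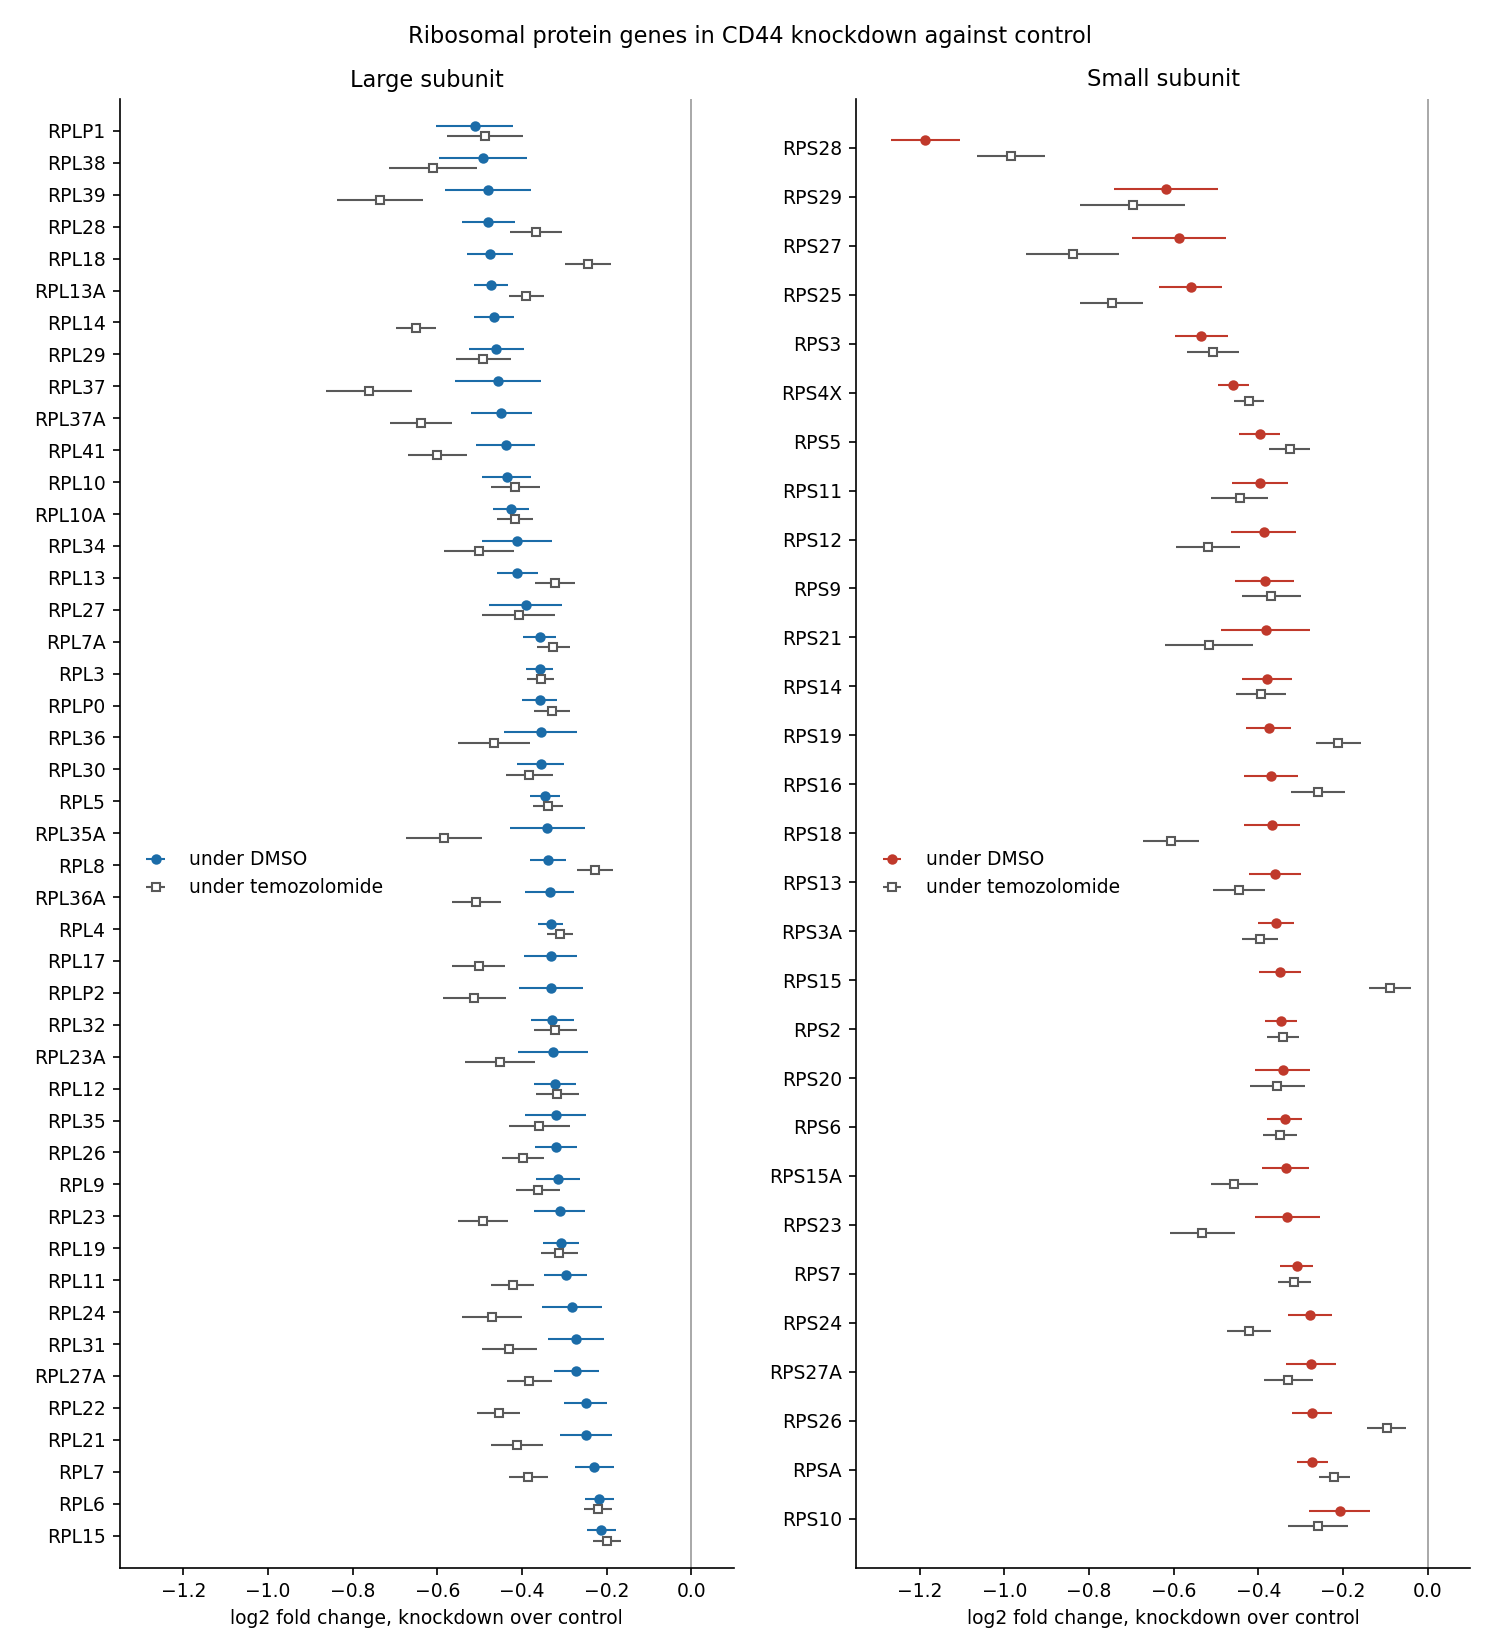
Log2 fold change of knockdown over control (horizontal axis, bars show the SE of the edgeR fit) for 74 of the 77 members, with large-subunit genes in the left panel and small-subunit genes in the right panel, under DMSO (filled) and under temozolomide (open), in order of the value under DMSO. All values are below 0; RPS28 lies far from the rest at -1.19 and -0.99, and RPS15 and RPS26 lie nearest 0 under temozolomide at -0.09 and -0.10.

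Under temozolomide the fall in knockdown cells was again spread over the family, and the SD over members was 0.16. Of the 77 genes 75 were lower than in control temozolomide cells, while 20.3% of all genes tested were lower and 22.0% higher. Of the 87 genes outside the family under 1000 bases and at 100 CPM or more, 48.3% were lower, with a median of -0.12. The median log2 fold change was -0.41, or 75.2% of the control level, beside a median of 0.0083 over all genes tested, with the middle 50% between -0.50 and -0.33. In 76 genes no libraries of the groups overlapped, a pattern of 24.4% of all genes tested, and RPS15 was the exception. The large subunit and the small subunit both had a median of -0.41. These libraries are not those of the DMSO comparison, although 1 model was fitted to all. The same 75 genes were lower in both comparisons, and 49 of the 77 had the more negative value under temozolomide. Among genes outside the family, the median log2 fold change was 0.03 above 60% GC and -0.02 below 40% GC, while genes under 1000 bases had -0.12. After correction for GC content and length the members' median was -0.26, with 71 genes lower and 1, RPS15, higher. In that fit 3239 of 12497 genes were lower and 2566 higher, and their median was -0.02.

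The same small-subunit genes, RPS28, RPS27, RPS25 and RPS29, were again the lowest of their subunit. RPS28 had 56.0, 49.5 and 51.1 CPM in knockdown temozolomide cells, against 106, 106 and 96.9 CPM in control temozolomide cells. Its log2 fold change was -0.99 (SE 0.081, adjusted p = 3.72e-09 in edgeR) and the groups lay far apart. RPS27 had 129, 127 and 129 CPM in knockdown temozolomide cells, against 226, 256 and 206 CPM in control temozolomide cells. The knockdown libraries lay close to each other and far below the control libraries, at a log2 fold change of -0.84 (SE 0.11, adjusted p = 2.85e-06 in edgeR). RPS25 had 225, 224 and 245 CPM in knockdown temozolomide cells, against 373, 417 and 375 CPM in control temozolomide cells. The log2 fold change was -0.75 (SE 0.075, adjusted p = 6.73e-08 in edgeR). RPS29 had 18.1, 16.2 and 17.1 CPM in knockdown temozolomide cells, against 28.4, 31.0 and 23.7 CPM in control temozolomide cells. Its log2 fold change was -0.70 (SE 0.12, adjusted p = 0.000112 in edgeR), with no overlap.

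In the large subunit the lowest were RPL37 at -0.76 (SE 0.10, adjusted p = 3.19e-06 in edgeR), RPL39 at -0.74 (SE 0.10, adjusted p = 5.07e-06 in edgeR), RPL14 at -0.65 and RPL37A at -0.64. The stalk genes lay at -0.33 for RPLP0, -0.49 for RPLP1 and -0.51 for RPLP2, all called lower. RPL5 and RPL11 lay at -0.34 and -0.42, RPL3 at -0.36, RPS3 at -0.51, RPS6 at -0.35 and RPS4X at -0.42. The smallest called differences were -0.20 for RPL15 and -0.21 for RPS19. All of these were lower in knockdown cells.

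RPS15 and RPS26 were the members not called here, and both were lower under DMSO. RPS15, a protein of the small-subunit head near the decoding site, had 301, 279 and 265 CPM in knockdown DMSO cells, against 376, 339.6 and 360.1 CPM in control DMSO cells, and a log2 fold change of -0.35 (SE 0.050, adjusted p = 9.82e-06 in edgeR). With temozolomide it had 297, 272 and 264 CPM in knockdown temozolomide cells, against 308, 279.9 and 298 CPM in control temozolomide cells, groups that overlapped, and a log2 fold change of -0.09 (SE 0.050, adjusted p = 0.167 in edgeR). After correction for GC content and length these values were -0.09 under DMSO (adjusted p = 0.193 in edgeR) and 0.15 under temozolomide (adjusted p = 0.038 in edgeR). RPS26, which contacts the messenger upstream of the start codon, had 272, 248 and 249.7 CPM in knockdown DMSO cells, against 317, 293 and 319.7 CPM in control DMSO cells, at -0.27 (SE 0.047, adjusted p = 7.81e-05 in edgeR). With temozolomide it had 285, 249 and 277 CPM in knockdown temozolomide cells, against 286, 287 and 294 CPM in control temozolomide cells. The highest knockdown library lay just under the lowest control library, and the log2 fold change was -0.10 (SE 0.047, adjusted p = 0.104 in edgeR). With no filter on low counts RPS26 was called lower here (adjusted p = 0.0254 in edgeR), and so was RPS15 (adjusted p = 0.0452 in edgeR). Both were also called lower without knockdown temozolomide library 1, and RPS26 with a replicate block.

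**Figure D3:**
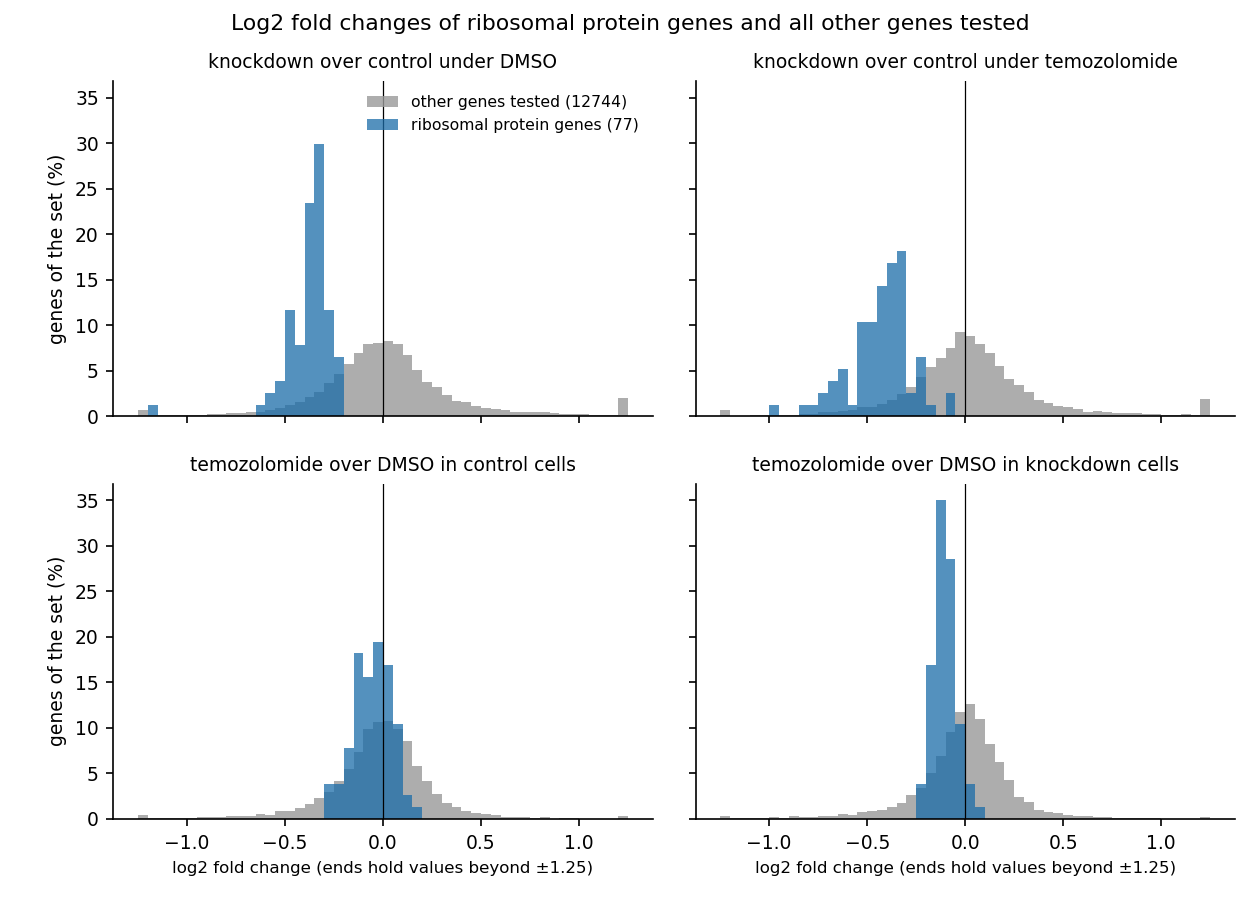
Share of genes (vertical axis, percent of each set) by log2 fold change (horizontal axis, bins of 0.05) for the 77 ribosomal protein genes (blue) and the 12744 other genes tested (grey), with 1 panel for each comparison of 2 groups. The family lies left of 0 in both knockdown panels, with medians of -0.36 and -0.41, and close to 0 in both temozolomide panels, with medians of -0.05 and -0.10.

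Fewer members passed the test for temozolomide than for CD44 knockdown. In knockdown cells 13 of the 77 genes were lower with temozolomide than with DMSO and 0 were higher, beside 13.2% of all genes tested lower and 9.05% higher. The median log2 fold change was -0.10, against 0.0046 over all genes tested, 73 of the 77 values were below 0, and in 26 genes the libraries did not overlap, a pattern of 19.8% of all genes tested in this direction. The 13 called genes were 10 of the large subunit and 3 of the small subunit, and the subunit medians were -0.12 and -0.10. RPS18 at -0.19, RPL11 at -0.18 and RPL14 at -0.17 were the lowest called. RPL35A and RPL34 had lower values, -0.24 and -0.24, that did not pass the test (edgeR adjusted p = 0.0649 and 0.0533). With libraries scaled to their totals alone, 0 members were lower and the median was -0.04. The count was 3 without knockdown temozolomide library 2 or knockdown DMSO library 1, 28 without control DMSO library 2 and 30 without control DMSO library 3.

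In control cells 18 of the 77 genes were lower with temozolomide and 0 were higher, beside 15.8% of all genes tested lower and 11.7% higher. The median was -0.05, and it was above 0, at 0.02, with library totals alone and, at 0.01, without control DMSO library 3, where 10 members were lower and 12 higher. Without control DMSO library 2, 31 were lower. All genes tested had a median of -0.0040. In 17 genes the libraries did not overlap, a pattern of 21.6% of all genes tested in this direction. Among the lowest values were those of RPS15 at -0.28 (SE 0.050, adjusted p = 0.000282 in edgeR), RPL18 at -0.28 (SE 0.053, adjusted p = 0.000531 in edgeR) and RPS19 at -0.21, all called lower. RPS28 was also called lower, at -0.21 (SE 0.075, adjusted p = 0.0401 in edgeR), but it was -0.089 without control DMSO library 3 (adjusted p = 0.365 in edgeR) and was not called by DESeq2 (adjusted p = 0.159). RPS27 and RPL37 were among the highest, at 0.15 and 0.12, with edgeR adjusted p = 0.329 and 0.384. The control DMSO libraries also enter the knockdown comparison under DMSO, so the values of these genes in both comparisons are not independent.

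With temozolomide 8 of the 77 genes were lower in both kinds of cell, a share near the 8.57% of all genes tested. The count therefore does not set the family apart. The genes were RPL3, RPL4, RPL5, RPL6, RPL7A, RPL13A, RPL15 and RPS7. They are 8 of the 13 lower in knockdown cells and 8 of the 18 lower in control cells. Without knockdown DMSO library 1, or without knockdown temozolomide library 2, only RPL3, RPL5 and RPL15 were lower in both, and with other single libraries left out 4 to 13 members were. With library totals alone or with limma on log2 FPKM, 0 members were lower in both. The temozolomide comparisons in knockdown and in control cells share no libraries. RPL5 changed by -0.15 (SE 0.036, adjusted p = 0.00415 in edgeR) in knockdown cells and -0.16 (SE 0.036, adjusted p = 0.00216 in edgeR) in control cells. RPL3 changed by -0.14 (SE 0.032, adjusted p = 0.00356 in edgeR) in knockdown cells and -0.14 (SE 0.032, adjusted p = 0.00217 in edgeR) in control cells. Its CPM was 1031, 1036 and 1025 CPM in knockdown temozolomide cells, against 1152, 1136 and 1118 CPM in knockdown DMSO cells. In control cells it was 1303, 1335 and 1318 CPM in control temozolomide cells, against 1461, 1381 and 1524 CPM in control DMSO cells. The knockdown libraries with temozolomide all lay under those with DMSO, as did the control libraries.

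No member passed the test of whether the temozolomide response differed between knockdown and control cells, against 1.05% of all genes tested (135 genes). The edgeR test gave 0 calls at an adjusted p below 0.05 and 13 members at an unadjusted p below 0.05, and the DESeq2 Wald test called 1. The smallest adjusted p belonged to RPS15, whose difference was 0.26 (SE 0.071, adjusted p = 0.0701 in edgeR), with a response of -0.02 in knockdown cells and -0.28 in control cells. With a replicate block in the fit, RPS15 was called for this difference. The most negative value was RPL37 at -0.31 (SE 0.14, adjusted p = 0.266 in edgeR). The median difference was -0.04 over the family and 0.0056 over all genes tested. A missed threshold does not show that the responses were alike, and without control DMSO library 3, 9 members were called lower, with a median of -0.13.

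The members' responses to temozolomide varied with the GC content of the transcript, with opposite signs in knockdown and control cells. Per library, however, the difference between GC-rich and GC-poor genes separated the treatments in control cells only. Across the 77 genes, which share the same libraries and so are not independent, Pearson r between GC content and log2 fold change was 0.35 in knockdown cells and -0.46 in control cells. For the difference between the responses it was 0.52. The responses also varied with log2 implied length, with r of 0.13 in knockdown cells, -0.36 in control cells and 0.34 for the difference. By Spearman rho, control cells had -0.44 for length and -0.43 for GC content. The parts of length and GC content were not tested apart. The 25 members of highest GC content, from 53.6% to 64.1%, had a median of -0.08 in knockdown cells and -0.13 in control cells. The 25 of lowest GC content, from 40.9% to 47.9%, had -0.13 in knockdown cells and -0.04 in control cells. Genes outside the family showed the same arrangement: above 60% GC their median was 0.04 in knockdown cells and -0.10 in control cells, and below 40% GC it was -0.0017 in knockdown cells and 0.11 in control cells. For the knockdown comparisons r was -0.12 under DMSO and 0.32 under temozolomide. Control DMSO library 3 also had the largest difference between GC-rich and GC-poor genes, 0.22 on the log2 scale. In control cells this difference was 0.156, 0.070 and 0.218 with DMSO and 0.039, -0.084 and -0.137 with temozolomide. In knockdown cells it was -0.066, -0.019 and -0.087 with DMSO and 0.075, -0.0027 and -0.121 with temozolomide, groups that overlapped. After correction for GC content and length, 21 members were lower and 2 higher with temozolomide in knockdown cells, with a median of -0.05, and 21 were lower and 7 higher in control cells, with a median of -0.03. Of the 12497 genes in that fit, 1834 were lower and 1774 higher in knockdown cells, and 1906 lower and 1518 higher in control cells.

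**Figure D4:**
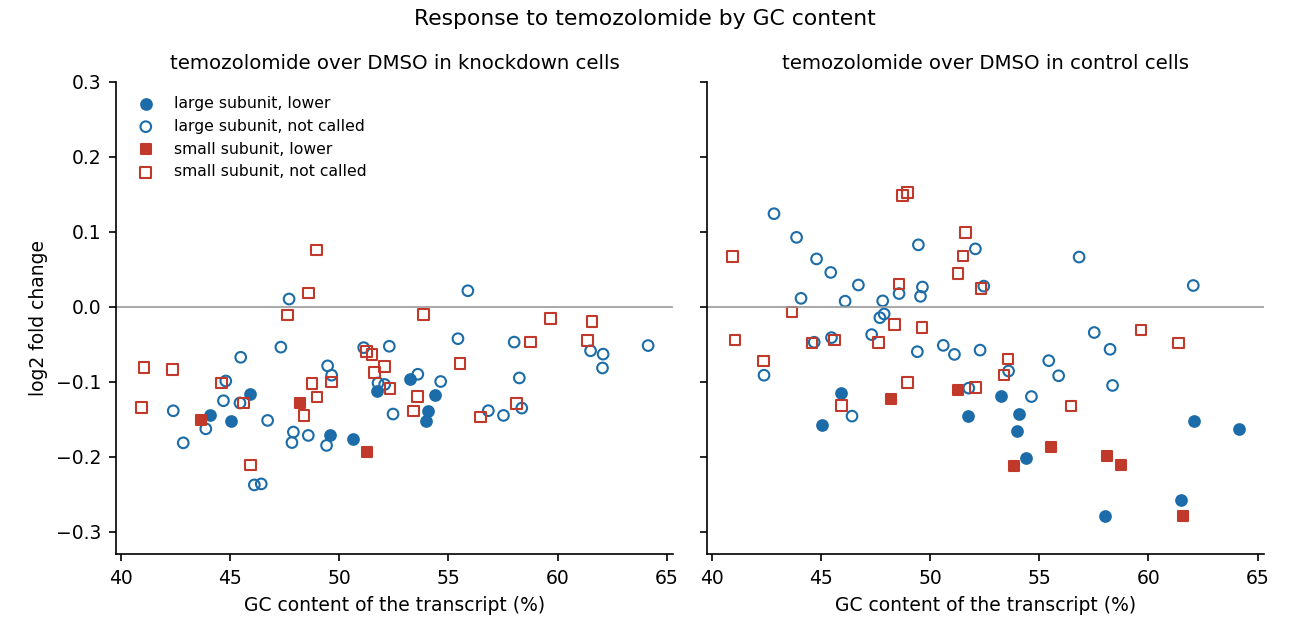
Log2 fold change of temozolomide over DMSO (vertical axis) against GC content of the transcript in percent (horizontal axis) for the 77 members, in knockdown cells (left panel) and control cells (right panel), with circles for the large and squares for the small subunit, filled where called lower. Pearson r is 0.35 on the left and -0.46 on the right.

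The members differed widely in level, and the groups kept their order. Levels are compared here as FPKM, which divides fragments by length and library size, over all 12 libraries. The median member had 557 FPKM, with the middle 50% between 393 and 828, and the large and small subunits had medians of 559 and 525. The highest means were 2403 FPKM for RPS2, 2171 for RPLP0, 1973 for RPL41, 1587 for RPS18 and 1447 for RPL4. The lowest were 23.2 for RPL23A, 52.2 for RPS10, 61.1 for RPS28, 76.6 for RPS29 and 124 for RPL34. Only 3 of the 76 gaps between neighbours in this order exceeded the summed SD of the 2 genes over the 12 libraries, an SD that includes the differences between groups. By the SD within groups, 3 gaps exceeded the summed SD in all 4 groups and 42 did in at least 1. Between any 2 groups the order had a Spearman rho of 0.975 to 0.995, and no gene moved more than 19 places.

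RPS2 had 2136 ± 93.4 FPKM in knockdown DMSO cells and 2639 ± 106 in control DMSO cells, and 2162 ± 114 in knockdown temozolomide cells and 2673 ± 4.8 in control temozolomide cells (SD, n = 3 each). RPL41, the shortest protein of the family, had 1656 ± 88.7 FPKM in knockdown DMSO cells and 2181 ± 321 in control DMSO cells, and 1635 ± 123 in knockdown temozolomide cells and 2421 ± 117 in control temozolomide cells. RPL23A stood at 21.3 ± 1.5 FPKM in knockdown DMSO cells and 25.7 ± 0.74 in control DMSO cells. It has 91 pseudogenes named after it in the GENCODE annotation, the most of any member. Of the 77 genes 76 have at least 1 such copy, with a median of 10, and 14 had fractional counts, RPS10, RPL10, RPL36A and RPL17 in every library. The levels of these genes are uncertain where reads could be split between a gene and its copy. Leaving the 14 out of the count, a choice made after the values were seen and with no new fit, left 63 members. Of these, 63 were lower under DMSO and 61 under temozolomide, with medians of -0.36 and -0.41. Both counts follow from the calls above, so they do not test the part of split reads.

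**Figure D5:**
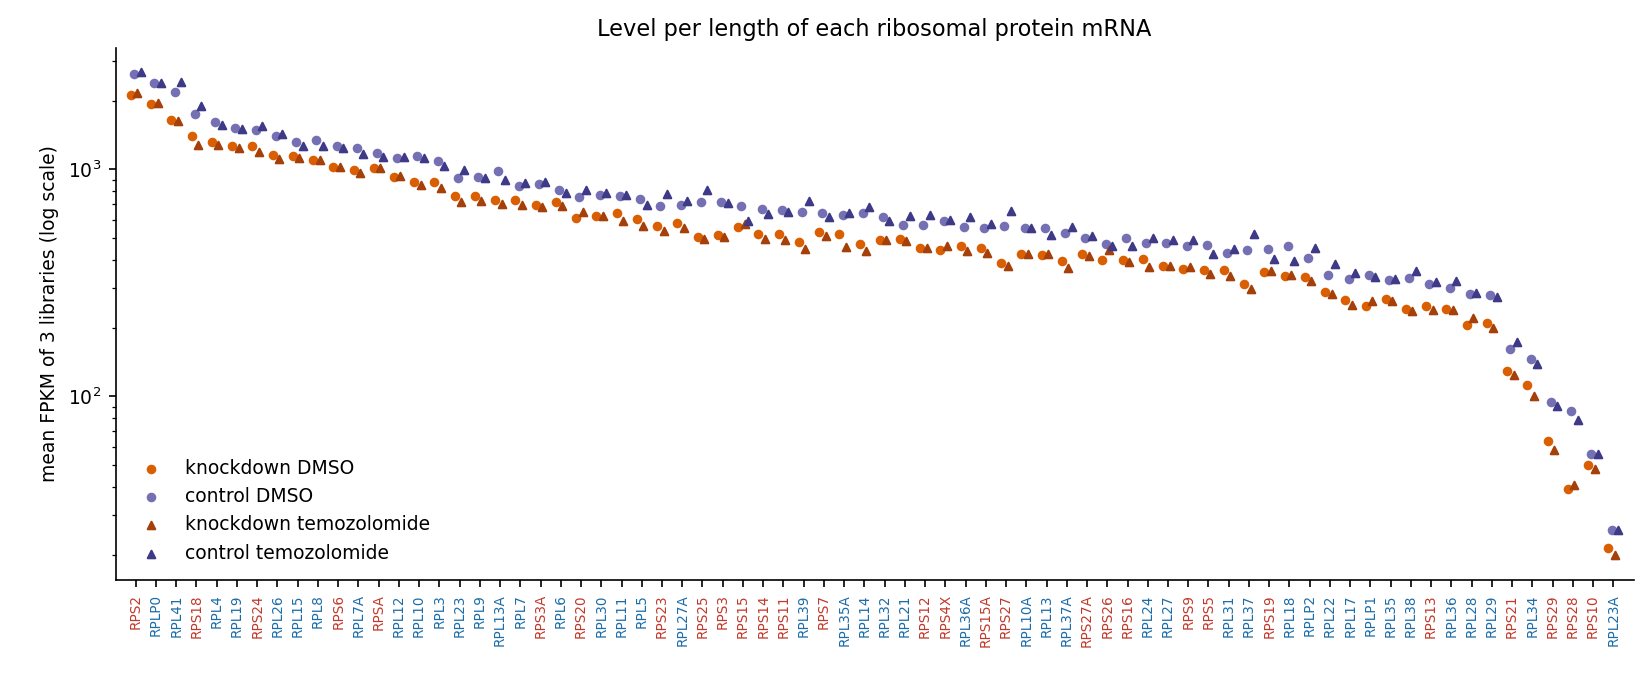
Mean FPKM of 3 libraries (vertical axis, log scale) of 74 of the 77 ribosomal protein genes in each group, in order of the mean over 12 libraries, with blue names for the large and red names for the small subunit, circles for DMSO and triangles for temozolomide. The order runs from RPS2 at 2403 FPKM to RPL23A at 23.2 FPKM.

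Across the 12 libraries the family moved as 1 block. Each gene's log2 CPM correlated with the mean of the other members at a median Pearson r of 0.967, and 72 of the 77 had r above 0.9. The closest gene had r = 0.996, and RPS15 was least close at 0.73. The family's median was lower in all 6 knockdown libraries than in all 6 control libraries, so r largely restates that difference and is given without a p. Among 10435 genes outside the family with at least 5 CPM, the most alike were SNRPD2, a core protein of the splicing particles, at r = 0.980 and PPIB, a prolyl isomerase of the endoplasmic reticulum, at 0.979. PYURF and PIGY, which share 1 locus and had the same counts, were at 0.977, as was COX5B, a subunit of cytochrome c oxidase. The log2 fold changes in knockdown DMSO and knockdown temozolomide cells against their controls were -0.50 and -0.44 for SNRPD2, -0.25 and -0.27 for PPIB and -0.63 and -0.67 for COX5B.

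Members with and without the pyrimidine run are described here with no test of their difference. Under DMSO the 53 members with a run were all lower in knockdown cells, with a median of -0.36, and so were the 9 without, with a median of -0.33. Under temozolomide 53 of 53 and 7 of 9 were lower, with medians of -0.42 and -0.36. The temozolomide response had medians of -0.10 with a run and -0.12 without in knockdown cells, and of -0.05 with a run and -0.10 without in control cells. RPS15 and RPS26, the members not called under temozolomide, are both among the 9. So are RPL15 and RPL6, the large-subunit members nearest 0 in both knockdown comparisons, and RPS29, which was among the lowest.

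Other messengers of the translation machinery that carry TOP motifs were lower in knockdown cells too, with medians nearer 0 than the family's. Of 16 such genes, which encode elongation factors, initiation factors and others, 14 were lower in knockdown cells under DMSO and 15 under temozolomide, and 0 were higher. All genes tested were lower in 21.4% and 20.3% of cases. The medians of the 16 genes were -0.17 and -0.21. EEF1G, a subunit of the factor that reloads elongation factor 1A, lay at -0.35 and -0.33. EIF4B, a cofactor of the initiation helicase, lay at -0.33 and -0.40, and EEF1A1, which brings aminoacyl-tRNA to the ribosome, at -0.27 and -0.29. With temozolomide 13 of the 16 were lower in knockdown cells, with a median of -0.15, and 10 in control cells, with a median of -0.11, both further from 0 than the family's -0.10 and -0.05. Of all genes tested, 13.2% and 15.8% were lower. These values depend on the scaling: with library totals alone the median of all genes was 0.067 in knockdown cells and 0.063 in control cells, against 0.0046 and -0.0040 here.

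Genes that the symbol rule leaves out but that make the same or related proteins partly moved along. Of 8 such genes, 5 were lower and 0 higher in knockdown cells with either treatment, while 21.4% (DMSO) and 20.3% (temozolomide) of all genes tested were lower. FAU, a fusion that yields the small-subunit protein eS30, lay at -0.42 under DMSO and -0.38 under temozolomide. RPL36AL, a near copy of RPL36A, lay at -0.27 and -0.34.

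Genes that regulate these messengers did not move in 1 direction. Of 17 regulators of mTORC1 and of TOP messengers, 5 were higher and 6 lower in knockdown cells under DMSO, and 4 higher and 2 lower under temozolomide. Over all genes tested the shares were 21.1% higher and 21.4% lower under DMSO, and 22.0% higher and 20.3% lower under temozolomide. MTOR, the kinase itself, was higher by 0.21 and 0.35, and RPS6KB1, the main S6 kinase, by 0.32 and 0.27. AKT1S1, an inhibitor within mTORC1, was lower at -0.39 and -0.26. LARP1 did not pass the test in either knockdown comparison, at -0.02 and -0.01. RPTOR, which presents substrates to mTORC1, was lower under DMSO at -0.25, and EIF4EBP1, a repressor of cap-dependent initiation, at -0.33. Under temozolomide RPTOR lay at 0.01 and EIF4EBP1 at -0.17, neither called. For temozolomide against DMSO, 2 of the 17 were higher and 6 lower in control cells, and 4 higher and 2 lower in knockdown cells. LARP1 and CNBP were called lower in both. Of all genes tested, 11.7% were higher and 15.8% lower in control cells, and 9.05% and 13.2% in knockdown cells.

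Of 18 genes for chaperones, nuclear import and quality control of ribosomal proteins, 1 was higher and 3 lower in knockdown cells under DMSO, and 4 higher and 2 lower under temozolomide. LTV1, an assembly factor of the small subunit, was higher by 0.19 under DMSO, and GRWD1, a chaperone of RPL3, by 0.32 under temozolomide. PDCD2, a chaperone of RPS2, was lower at -0.18 and -0.22. Of 12 factors that act at ribosomal protein promoters, 3 were higher and 4 lower under DMSO, and 3 higher and 3 lower under temozolomide. Beside both lists, 21.1% of all genes tested were higher and 21.4% lower under DMSO, and 22.0% and 20.3% under temozolomide. ZNF143 was higher by 0.35 and 0.35, and THAP11, which acts with it, was lower at -0.40 and -0.29. MYC, a driver of ribosome production, was lower with temozolomide in knockdown cells at -0.35 and in control cells at -0.46.

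The 13 messengers of the mitochondrial genome, which are translated by separate ribosomes, had medians of -0.18 under DMSO and -0.19 under temozolomide, with 8 and 7 of them lower in knockdown cells and 0 higher. The shares of all genes tested that were lower were 21.4% and 20.3%. MT-CO3 and MT-CO1, subunits of cytochrome c oxidase, lay at -0.29 and -0.27 under DMSO, and at -0.22 and -0.19 under temozolomide. Their summed counts were 5.70% ± 0.24 of all counts in knockdown DMSO cells and 6.40% ± 0.28 in control DMSO cells, and 5.58% ± 0.020 in knockdown temozolomide cells and 5.92% ± 0.32 in control temozolomide cells (SD, n = 3 each).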

How the data were processed

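Poly(A) RNA of 12 U251 libraries was read on a NovaSeq, per the labels. The authors deposited estimated counts per gene (fractional in 10.7% to 12.0% of values per library) and FPKM, which divides by transcript length and library size. The tools named in the submitters' processing notes are RSEM, StringTie 1.3.1, HISAT2, Bowtie2 2.2.8 and fastp 0.18.0. The build is not given in the sources used here.

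Counts were rounded and fitted in R 4.3.3 with edgeR 4.0.16 (filterByExpr, TMM, quasi-likelihood, 4 group means, all 12 libraries, no replicate block). The biological coefficient of variation was 3.90%, and 583 rows had no symbol. The call threshold was an adjusted p (Benjamini-Hochberg, 12821 genes) below 0.05, and SE came from the fold change and its F statistic. The procedure was tested on simulated counts of independent genes with planted changes. That test does not cover genes that move together, as these members do. GC content and pseudogenes came from GENCODE release 29 by gene ID, start sequences from RefSeq. Implied length is counts over FPKM.

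The members and lists were chosen with earlier results of these data known. Named genes are a fixed set, the extremes of each subunit per comparison, uncalled members where few, the smallest p per list, and the ends of the level order. Alternatives were other scalings, DESeq2 1.42.0, filters, limma 3.58.1 on log2 FPKM, thresholds, a replicate block, each library left out, and splines (5 degrees of freedom) for GC content and length. A few genes are not reported here by name.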

Additional observations from a re-analysis of the deposited data

Results flagged for a closer look

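No ribosomal protein gene met a criterion for a closer look, but 4 genes of the related lists had temozolomide responses that differed between knockdown and control cells by edgeR's interaction test. The difference in log2 fold change, knockdown minus control cells, was -0.23 for HNRNPA1 (adjusted p = 0.0346), which is listed among TOP messengers. It was -0.35 for the keratin KRT14 (adjusted p = 0.027), 0.30 for the S6 kinase RPS6KB2 (adjusted p = 0.0429) and -0.40 for the TBP-like factor TBPL1 (adjusted p = 0.0491). The call of TBPL1 was lost with the replicate block (adjusted p = 0.0506), and each call was lost with some single libraries left out, where adjusted p reached 0.116 for HNRNPA1, 0.0917 for KRT14, 0.13 for RPS6KB2 and 0.14 for TBPL1 in edgeR. In limma fits to log2 FPKM 0 of the 4 were called, and RPS6KB2 was 0.17 after correction for GC content and length (adjusted p = 0.198).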

How the results depend on the processing

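The fall in knockdown cells kept its direction for every member called, and at least 74 of 77 members stayed lower under DMSO and 71 of 75 under temozolomide in every edgeR or DESeq2 setting tried. In limma fits to log2 FPKM 59 to 65 and 71 to 73 stayed lower. With each library left out, 74 to 77 were lower and 0 higher under DMSO (median -0.41 to -0.28) and 75 to 77 under temozolomide (median -0.43 to -0.37). Correction for GC content and length gave medians of -0.23 and -0.26, also with the replicate block, beside -0.03 and -0.02 over all genes. With that correction 1 member, RPS15, was higher under temozolomide (0.15, adjusted p = 0.038 in edgeR).

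The temozolomide counts were less settled, and the cause was not tested. In control cells 7 members were lower with library totals, with or without the ribosomal protein genes, and 1, 0 and 0 in the limma fits to log2(FPKM + 1), log2(FPKM + 0.1) and unfiltered FPKM. There 1 was higher with totals alone and with no filter, and 7 with the GC and length correction (6 with the block). Leaving out 1 library gave 10 to 31 lower, 0 to 12 higher and medians of -0.11 to 0.01. In knockdown cells 0 were lower and 1 higher with either form of totals, and 0 lower in the 3 limma fits. There 35 were lower with no filter, 28 with only the groups compared, 3 at an adjusted p below 0.01 and 21 with the GC and length correction, with or without the block, where 2 were higher. Leaving out 1 library gave 3 to 30 lower, 0 higher and medians of -0.14 to -0.06. For the difference between responses, 7 were lower and 2 higher with no filter, 1 higher with DESeq2 and with the replicate block, and 1 lower and 1 higher with the GC and length correction (2 and 1 with the block). Leaving out 1 library gave 0 to 9 lower, 0 to 2 higher and medians of -0.13 to 0.022. Library totals alone moved the median of all genes by up to 0.067 and the split for knockdown under DMSO to 3387 higher and 2169 lower, from 2710 and 2748.

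Whether replicate numbers pair libraries was not settled. In 18 pairs the same-number correlation ran from -0.077 to 0.14, and for 6 of 12 libraries the best match bore the same number. A replicate block took the genes called for the difference between responses from 56 higher and 79 lower to 103 higher and 119 lower. With the block, RPS15 was called for the difference between responses (0.26, adjusted p = 0.0168 in edgeR) and RPS26 was called lower under temozolomide (-0.10, adjusted p = 0.0475 in edgeR). Called genes of the lists that changed sign were MT-ND4L (0.013 under DMSO with the GC and length correction, 0.013 with the block, and 0.0073 under temozolomide), MAX (0.036, 0.038 and 0.036 in the limma fits under temozolomide) and IPO9 (-0.0049, and -0.0044 with the block, under temozolomide).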
